A study of Mus musculus with 6 samples.

Results

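The genes described here are *Gzmd*, *Gzmc*, *Mcpt8*, *Mcpt1*, *Nynrin* and *Ripk3*, 6 of the 14548 genes measured. They lie within 449.7 kb of mouse chromosome 14, in and beside the stretch that holds the granzyme and mast cell protease genes. They were taken from this stretch for their lower FPKM values in MSTN-KO than in WT libraries, so that difference is given as a description and was not tested. FPKM counts the fragments of a gene, scaled to its length and to the depth of the library. RNA-seq was done on the mouse line C2C12, whose myoblasts can fuse into muscle fibres. There were 3 libraries of the genotype WT and 3 of the genotype MSTN-KO, in which the myostatin gene was edited with a Cas9 nickase and a guide against its exon 3. All MSTN-KO libraries came from 1 edited line, C11, and since the label of strain reads C11 for WT too, libraries were grouped by genotype. No treatment is named for either genotype, and the labels do not say whether the replicates were separate cultures, so the spread between them may be technical.

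Granzymes and mast cell proteases are serine proteases of one family. They are made as inactive precursors, trimmed by a cathepsin, and stored in the granules of cytotoxic lymphocytes, mast cells and basophils, from which they are released onto target cells or into tissue. Myoblasts are not known for such granules. *Gzmd* and *Gzmc* encode granzymes D and C, *Mcpt8* a protease used as a marker of basophils and *Mcpt1* a chymase of mucosal mast cells. Beside them lie *Ripk3*, whose kinase phosphorylates MLKL to bring about necroptosis, a form of cell death in which the plasma membrane ruptures, and *Nynrin*, whose product has a NYN ribonuclease domain and parts derived from a retroviral integrase.

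*Gzmd* was well expressed, while *Gzmg*, *Gzmf* and *Gzmc*, close copies of it with similar upstream bases, were near 0 or low. The level of *Gzme*, the closest copy, was not analysed here. Upstream sequences are shown for this contrast, and those of *Mcpt8* and *Mcpt1* for the more distant members. Each is 174 bases, 5′ to 3′ on the strand of the gene, from RefSeq on GRCm38.p6, and stops before the first base that RefSeq or GENCODE gives to the gene. Counted from the RefSeq start, the last printed base is at -16 for *Gzmd*, -11 for *Gzmf*, -77 for *Mcpt8* and -1 for *Gzmc*, *Gzmg* and *Mcpt1*. The positions are chr14:56132609-56132782 for *Gzmd*, chr14:56234658-56234831 for *Gzmc*, chr14:56159580-56159753 for *Gzmg*, chr14:56211418-56211591 for *Gzmf* and chr14:56085274-56085447 for *Mcpt8*, all on the minus strand, and chr14:56017790-56017963 for *Mcpt1* on the plus strand. Capitals mark TGTGGT (or ACCACA, its form on the other strand), the core bound by RUNX factors. They also mark GATAA (or TTATC), a form of the core bound by GATA factors, and the palindrome TGACGTCA, the cyclic AMP response element. Other forms of the GATA core, such as GATAG, were not marked or counted. The marked motifs do not overlap each other.
Gzmd: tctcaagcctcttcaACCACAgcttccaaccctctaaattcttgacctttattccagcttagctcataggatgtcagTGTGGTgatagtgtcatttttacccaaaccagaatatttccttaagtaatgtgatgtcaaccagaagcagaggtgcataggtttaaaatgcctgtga
Gzmc: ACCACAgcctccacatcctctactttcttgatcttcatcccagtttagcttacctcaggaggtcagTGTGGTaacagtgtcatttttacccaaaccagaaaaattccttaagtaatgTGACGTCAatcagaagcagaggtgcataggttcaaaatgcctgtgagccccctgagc
Gzmg: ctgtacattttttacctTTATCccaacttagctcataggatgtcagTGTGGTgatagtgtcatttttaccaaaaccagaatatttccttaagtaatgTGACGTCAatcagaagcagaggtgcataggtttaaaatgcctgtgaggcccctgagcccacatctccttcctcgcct
Gzmf: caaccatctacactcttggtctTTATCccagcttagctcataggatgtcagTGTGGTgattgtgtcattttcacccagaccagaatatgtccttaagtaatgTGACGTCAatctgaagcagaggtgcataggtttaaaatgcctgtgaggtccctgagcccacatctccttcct
Mcpt8: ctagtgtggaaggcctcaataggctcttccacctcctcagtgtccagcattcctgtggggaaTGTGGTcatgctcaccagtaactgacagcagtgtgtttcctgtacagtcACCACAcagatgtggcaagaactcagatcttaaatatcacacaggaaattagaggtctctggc
Mcpt1: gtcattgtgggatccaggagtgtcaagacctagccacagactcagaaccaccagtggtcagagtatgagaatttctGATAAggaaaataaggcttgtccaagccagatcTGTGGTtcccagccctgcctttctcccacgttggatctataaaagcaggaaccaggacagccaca

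Over the 250 bases before the RefSeq start, *Gzmd* was 95.2% identical to *Gzme*, 88.2% to *Gzmf*, 87.8% to *Gzmg* and 81.1% to *Gzmc*. Against *Mcpt8*, *Mcpt1*, *Ripk3* and *Nynrin* it was between 41.4% and 48.7% identical. The letters TGTGGT stood 2 times in the window of *Gzmd*, beginning at positions -112 and -174 from its RefSeq start, and 2 times in those of *Gzmc*, *Gzmg*, *Gzmf* and *Mcpt8*. *Mcpt1* and *Ripk3* had 1 match each and *Nynrin* had 0. Of all 32851 RefSeq windows of this length, 14.05% held TGTGGT at least 1 time on either strand. The share of windows with 2 matches was not counted. Matches in the granzyme windows are not independent, because the windows are copies of each other. GATAA, which 22.6% of all windows held, was in the windows of *Gzmg*, *Gzmf*, *Mcpt1* and *Nynrin*, and also in those of *Gzme*, *Mcpt4* and *Cma1*. It was not in those of *Gzmd*, *Gzmc*, *Mcpt8*, *Ripk3*, *Gzmn*, *Gzmb* and *Ctsg*. However, GATAG, another form of the GATA core, stands directly after TGTGGT in the printed bases of *Gzmd* and *Gzmg*. TGACGTCA, held by 1.55% of all windows, was in the windows of *Gzmc*, *Gzmg* and *Gzmf*, where *Gzmd* did not have it. The windows of *Gzme*, *Gzmn*, *Gzmb*, *Mcpt8*, *Mcpt1*, *Mcpt4*, *Cma1*, *Ctsg*, *Ripk3* and *Nynrin* did not have it either. It was thus also absent from other low protease genes. These matches are descriptions of the letters only.

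The FPKM values of a library summed to 723705 to 764524 in WT and to 856314 to 999579 in MSTN-KO. From the steps between the low values of genes with a single transcript, 1 fragment was worth 0.0497 to 0.0660 FPKM on a gene of 1 kb, which puts the libraries at about 15200000 to 20100000 fragments. The fragment numbers given here come from this estimate and cover counting error only. *Mstn* was at most 0.0399 FPKM in WT and at most 0.0586 FPKM in MSTN-KO, so its RNA gave no check of the labels. Of the 7 myoblast markers measured, *Des*, *Myod1* and *Chrna1* were at 90.8 FPKM or more in every library. By limma, however, 5 of the 7 were lower in MSTN-KO, these 3 and *Itga7* and *Myog*, and *Pax7* was higher. *Itga7* kept its call in 10 of 16 alternative settings and *Pax7* in 8 of 16, while the other called markers kept theirs in 16 of 16. *Myog*, a marker of differentiation, was at 175, 148 and 47.3 FPKM in WT and at 7.33, 10.2 and 11.6 FPKM in MSTN-KO, and the part of these differences in the results below was not tested. Log2 differences are MSTN-KO minus WT on the log2(FPKM + 1) scale and understate the change of low genes. By limma with a Benjamini-Hochberg adjusted p under 0.05, 971 (8.96%) of the 10837 genes with at least 1 FPKM in any library were lower in MSTN-KO and 952 (8.78%) were higher.

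*Gzmd* (ENSMUSG00000059256, chr14:56129556-56132608, minus strand) had the highest expression of the 6 genes. Replicates 1, 2 and 3 of WT had 90.6, 91.1 and 103 FPKM, and those of MSTN-KO had 1.15, 2.71 and 2.16 FPKM. The WT libraries lay close together and far above every MSTN-KO library, and *Gzmd* ranked 962 to 1106 among the 14548 genes in WT but 9005 to 10050 in MSTN-KO. The means were 94.9 ± 7.09 and 2.01 ± 0.791 FPKM (SD, n = 3), a 47.3-fold difference, and the log2 difference was -5.03 with a standard error of 0.18. About 1547 to 1897 fragments lay behind the WT values and 16.8 to 46.9 behind the MSTN-KO values, so the gene was still detected in all 3 MSTN-KO libraries. In RNA from whole cultures, fewer cells with a transcript and less of it in each cell cannot be told apart.

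*Mcpt8* (ENSMUSG00000022157, chr14:56082166-56085273, minus strand) is the other strongly expressed protease gene of the stretch. Its values were 36.5, 42.6 and 49.4 FPKM in WT and 1.05, 1.61 and 1.27 FPKM in MSTN-KO. The groups were again far apart, with WT replicate 3 highest for *Mcpt8* as it was for *Gzmd*. The means of 42.8 ± 6.41 and 1.31 ± 0.285 FPKM (SD, n = 3) differed 32.7-fold, with a log2 difference of -4.24 (standard error 0.16). *Gzmd* stood at 2.09 to 2.48 times *Mcpt8* in the WT libraries and at 1.10 to 1.70 times in the MSTN-KO libraries, where *Mcpt8* rested on only 13.3 to 24.2 fragments.

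*Mcpt1* and *Gzmc* were expressed at a much lower level. *Mcpt1* (ENSMUSG00000022227, chr14:56017971-56020384, plus strand) was at 3.11, 2.28 and 1.89 FPKM in WT, and at 0.0699 FPKM, the worth of about 1 fragment, in MSTN-KO replicate 1. It was listed at 0 in MSTN-KO replicates 2 and 3. The WT values rested on 36.6 to 55.9 fragments, and here WT replicate 3 was the lowest of its group and not the highest. *Gzmc* (ENSMUSG00000079186, chr14:56231441-56234656, minus strand) was at 0.653, 1.10 and 1.48 FPKM in WT, about 10.3 to 25.3 fragments, and was listed at 0 in all 3 MSTN-KO libraries. In those libraries 3 fragments on *Gzmc* would be worth 0.187 to 0.221 FPKM, below the lowest WT value.

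*Ripk3* (ENSMUSG00000022221, chr14:55784995-55788865, minus strand) lies 344.6 kb from *Gzmd* and was the most even of the 6 genes between WT libraries. It was at 12.3, 11.8 and 11.8 FPKM in WT, a mean of 12.0 ± 0.289 FPKM (SD, n = 3), and was listed at 0 in MSTN-KO replicates 1, 2 and 3. On the longest protein-coding transcript of 1964 bases the WT values correspond to 428 to 465 fragments, and on the shortest of 482 bases to 105 to 114. For the longest transcript, 3 fragments would be worth 0.0852 to 0.101 FPKM in the MSTN-KO libraries. No gene with at least 3 FPKM in the other 5 libraries was listed at 0 in a single MSTN-KO library, while WT replicates 2 and 3 each had 1 such gene. *Ripk3* had the highest WT mean among the 9 genes that were at 1 FPKM or more in all WT libraries (10126 genes) and listed at 0 in all MSTN-KO libraries. In the other direction, 0 of the 9813 genes at 1 FPKM or more in all MSTN-KO libraries were listed at 0 in all WT libraries.

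*Nynrin* (ENSMUSG00000075592, chr14:55854010-55874736, plus strand) lies between *Ripk3* and the proteases. It was at 2.21, 1.34 and 1.41 FPKM in WT and at 0.209, 0.265 and 0.158 FPKM in MSTN-KO. WT replicate 1 was above the other two, and the groups did not overlap. The means of 1.65 ± 0.485 and 0.211 ± 0.0534 FPKM (SD, n = 3) differed 7.84-fold. On its transcript of 7511 bases this is about 202 to 294 fragments in WT and 20.9 to 35.7 in MSTN-KO, so the gene was still detected in every MSTN-KO library.

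For 6 of the 6 genes every WT library was above every MSTN-KO library. Of all 10837 tested genes, 18.1% were lower in this way, and since the 6 genes were chosen on this contrast nothing is read from their count. All 6 passed the filter on low values, *Gzmc*, *Mcpt1*, *Nynrin* and *Ripk3* only through their WT libraries. In WT the order of the levels was *Gzmd*, *Mcpt8*, *Ripk3*, *Mcpt1*, *Nynrin* and *Gzmc*. The first 3 were apart in every WT library, while the ranges of *Mcpt1* and *Nynrin*, and those of *Nynrin* and *Gzmc*, overlapped. WT replicate 3, which had the least *Myog* of the WT libraries, had the most *Gzmd*, *Mcpt8* and *Gzmc* and the least *Mcpt1*, so the 6 genes did not vary in parallel between WT libraries.

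**Figure D1:**
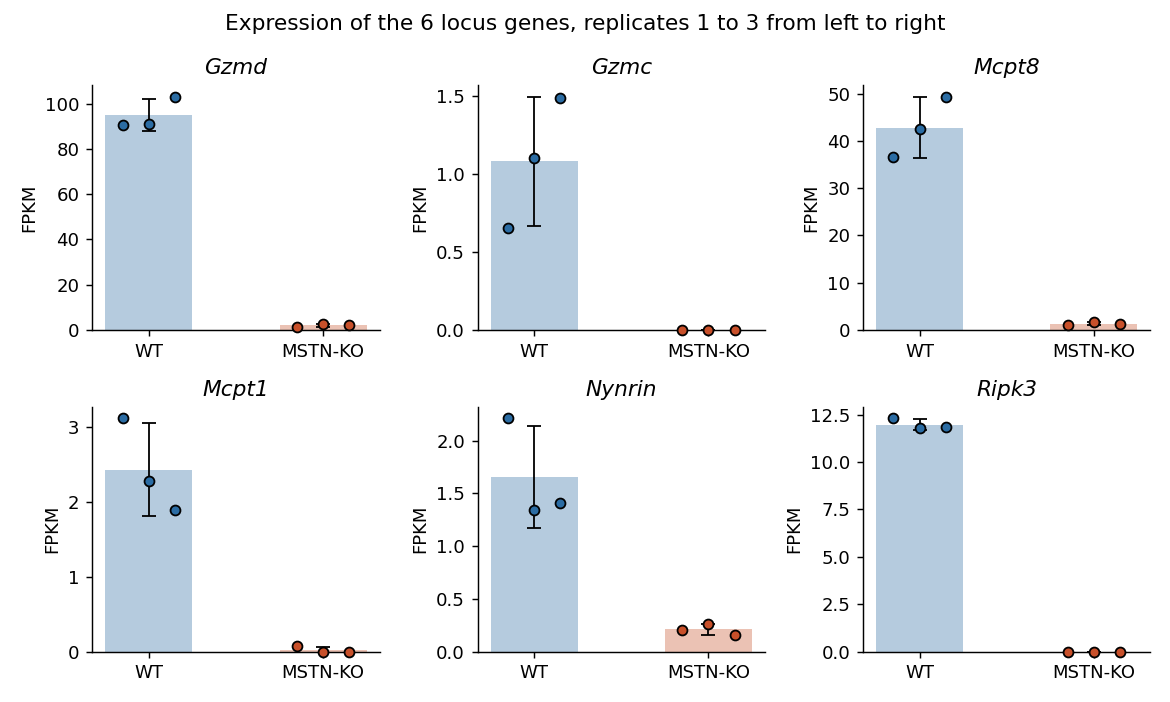
FPKM (vertical axes, from 0, a scale of its own for each gene) of the 6 genes in WT and MSTN-KO libraries, with points for replicates 1 to 3, bars for the mean and error bars for the SD (n = 3). *Gzmd* lies at 90.6 to 103 FPKM in WT and at 1.15 to 2.71 FPKM in MSTN-KO, and *Ripk3* and *Gzmc* are listed at 0 in all 3 MSTN-KO libraries.

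The stretch from *Ripk3* to *Gzmb* spans 477.3 kb and holds 21 annotated protein-coding genes, of which 17 were measured. *Gzme*, *Mcpt2*, *Mcpt9* and *Cma2* were not analysed here. Of the 11 granzyme, chymase and cathepsin G genes measured, 2 carried nearly all of the expression. *Gzmd* made up 65.3% to 68.2% of their summed FPKM in WT and *Mcpt8* 27.5% to 31.3%, and the sum was 133 to 158 FPKM in WT and 2.27 to 4.49 FPKM in MSTN-KO.

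The protease genes beside the chosen ones were low in both groups. *Cma1*, a chymase gene, was at 1.12, 0.626 and 0.561 FPKM in WT and at 0, 0 and 0.104 FPKM in MSTN-KO. It was the only one of the 7 to pass the filter, which it did only through WT replicate 1. It fell by 0.76 on the log2 scale (standard error 0.19, limma adjusted p = 0.0136), a call that was lost without WT replicate 1 (adjusted p = 0.0570). *Gzmn* was at 0.688, 0.820 and 0.515 FPKM in WT and above 0 in 1 of 3 MSTN-KO libraries, at 0.0606 FPKM. *Gzmb*, the main cytotoxic granzyme of killer cells, was at 0.0736, 0.289 and 0.266 FPKM in WT and at 0, 0.107 and 0.0371 FPKM in MSTN-KO, where the groups overlapped. *Ctsg*, *Mcpt4*, *Gzmg* and *Gzmf* were listed at 0 in all MSTN-KO libraries, and their highest WT values were 0.228, 0.162, 0.123 and 0.124 FPKM, which is a few fragments each. *Gzmg* and *Gzmf*, whose upstream bases are printed above beside those of *Gzmd*, were thus near 0 in WT cells also.

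**Figure D2:**
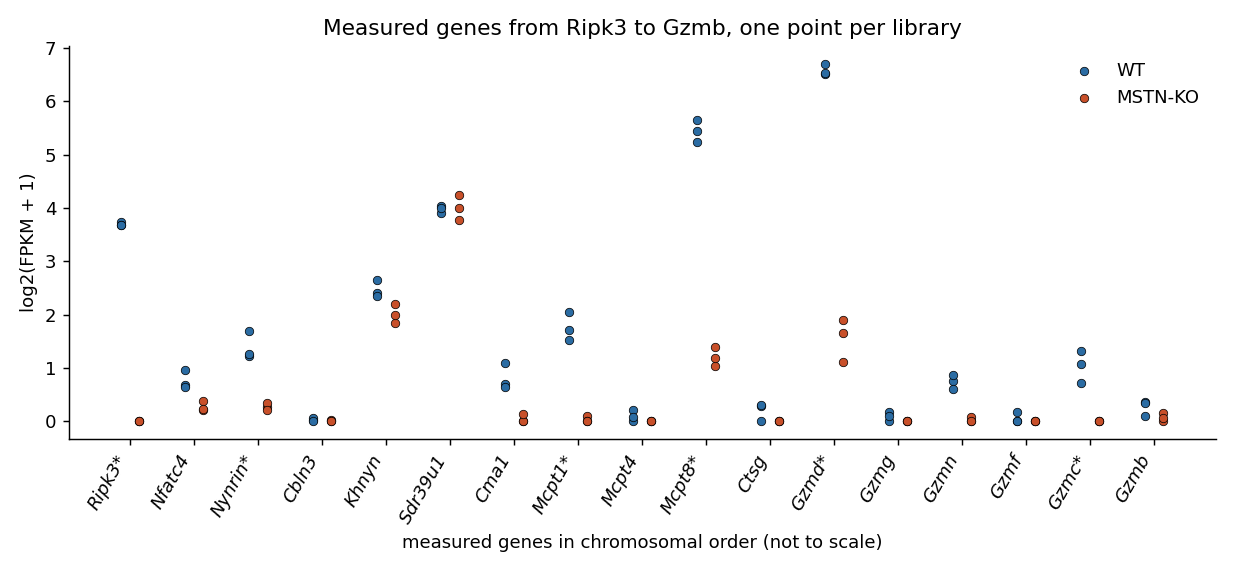
Expression as log2(FPKM + 1) (vertical axis) of the 17 measured genes from *Ripk3* to *Gzmb* in chromosomal order (horizontal axis, not to scale), 1 point per library, with asterisks on the 6 chosen genes. *Gzmd* and *Mcpt8* stand far above the other proteases in WT, and *Sdr39u1* and *Khnyn*, between *Nynrin* and *Cma1*, remain expressed in MSTN-KO.

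The granzyme genes are close copies, so how reads were divided among them is uncertain. The transcript of *Gzmd* was 93.4% identical to that of *Gzme*, 88.6% to *Gzmg*, 85.8% to *Gzmf*, 78.5% to *Gzmn* and 71.8% to *Gzmc*. Of its 915 windows of 50 bases, 21.9% also occurred in another protease transcript of the stretch, most often *Gzme*, and of its windows of 100 bases 0.231% did. *Mcpt8* and *Mcpt1* shared 0 windows of 50 bases, and *Gzmc* shared 4.14%. The level of *Gzmd* may therefore include fragments of *Gzme*, while *Mcpt8* and *Mcpt1* have no such partner within the stretch.

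Granzyme and tryptase genes on other chromosomes were low as well. Of 8 listed, 4 were measured, and *Tpsab1*, a mast cell tryptase gene on chromosome 17, was the only one tested. It was at 1.28, 1.46 and 1.69 FPKM in WT and at 0.434, 0.0535 and 1.13 FPKM in MSTN-KO. It fell by 0.74 (standard error 0.23, limma adjusted p = 0.0414), and it passed in 8 of the 16 alternatives, failing when any of 5 libraries was left out (MSTN-KO replicates 1 and 2 and each WT replicate; adjusted p up to 0.159 over all alternatives). *Gzmk*, *Gzmm* and *Tpsb2* were at most 0.341 FPKM in any library, with overlapping groups.

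Markers of the cells that usually make these proteases were low, near 0 or not analysed here. Of 9 mast cell and basophil markers, 4 were measured (*Hdc*, *Tpsab1*, *Tpsb2* and *Cd200r3*), and their summed level was 2.99 to 4.16 FPKM in WT and 1.01 to 2.40 FPKM in MSTN-KO. *Tpsb2* was listed at 0 in 5 of the 6 libraries. In WT, *Hdc* (1.31 to 1.88 FPKM) and *Tpsab1* were at levels like those of *Gzmc*, and *Hdc*, the histidine decarboxylase gene, had 1.65 ± 0.305 and 0.903 ± 0.355 FPKM (n = 3, limma adjusted p = 0.0906). Of 10 T and NK cell markers only *Cd4* was measured, at 0 in all WT libraries and at 0.0142 to 0.0338 FPKM in MSTN-KO. Of 7 myeloid and leukocyte markers 3 were measured (*Csf1r*, *Lyz2* and *Cd68*), with a sum of 1.19 to 1.56 FPKM in WT and 0.818 to 2.45 FPKM in MSTN-KO. The summed mast cell markers were thus lower in MSTN-KO, and their part in the difference of *Gzmd* and *Mcpt8* was not tested.

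Genes around the 6 were set beside them to see how far along the chromosome such a difference extended. Within 1 Mb on either side, 56 other genes were measured and 32 were tested. By limma's adjusted p, 1 was lower (*Cma1*, 3.13% of those tested, against 8.96% of all genes, and tested only through its value in WT replicate 1) and 0 were higher, and at an unadjusted p under 0.05 there were 3 lower and 2 higher. Their median log2 difference was -0.13, with 24 of 32 below 0, against -0.00 for all tested genes. These counts leave out the neighbours that were under 1 FPKM in every library. Without the filter, 8 of the 56 neighbours were lower and 0 higher, against 906 lower and 720 higher of all 14548 genes. The share of lower neighbours was thus below that of all genes with the filter and above it without the filter. On the rest of chromosome 14, 82 of 329 tested genes (24.9%) were lower and 9 higher, with a median of -0.30.

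Expressed genes flanked the proteases on either side. *Sdr39u1*, the nearest measured gene before the proteases, was at 13.9, 15.3 and 15.03 FPKM in WT and at 14.9, 12.7 and 18.0 FPKM in MSTN-KO, and the groups overlapped (log2 difference 0.03, standard error 0.15, limma adjusted p = 0.916). *Cenpj*, a centriole gene and the nearest measured one after *Gzmb*, lies 397.2 kb from *Gzmd*. It was at 1.85, 2.16 and 1.85 FPKM in WT and at 1.80, 1.64 and 0.921 FPKM in MSTN-KO. The groups did not overlap, but the gene did not pass the test (log2 difference -0.29, standard error 0.18, limma adjusted p = 0.294). *Khnyn*, a relative of *Nynrin* that lies between it and *Sdr39u1*, had 4.54 ± 0.604 and 3.06 ± 0.495 FPKM, again without overlap (n = 3, log2 difference -0.45, limma adjusted p = 0.0736). Chosen after their values were seen, *Nfatc4*, between *Ripk3* and *Nynrin*, was at 0.942, 0.600 and 0.554 FPKM in WT and 0.150, 0.306 and 0.174 FPKM in MSTN-KO, and *Slc22a17*, further out on the side of *Ripk3*, was at 0.588 to 0.741 FPKM in WT and listed at 0 in MSTN-KO. Neither passed the filter on low values.

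**Figure D3:**
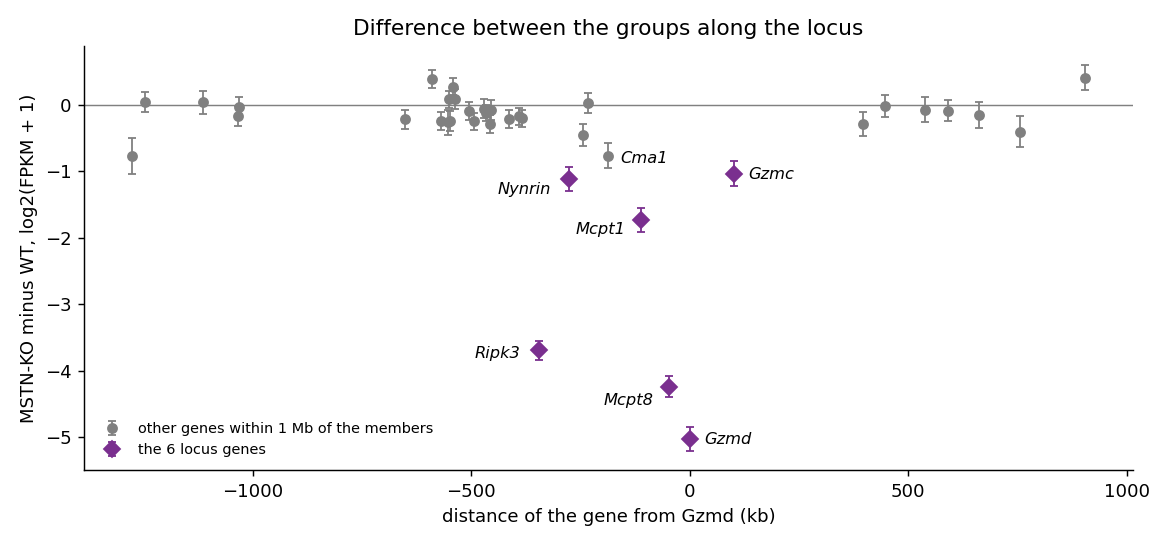
Difference between the groups (vertical axis, MSTN-KO minus WT in log2(FPKM + 1), with standard errors) against the distance of each tested gene from *Gzmd* (horizontal axis, kb), for the 6 chosen genes (diamonds) and the 32 other tested genes within 1 Mb of them (circles). The circles lie between -0.77 and 0.41 and the diamonds between -5.03 and -1.04, and the diamonds were chosen for these values.

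The genes whose expression profile was most like that of *Gzmd* were found from the distance between centred log2 profiles over the 6 libraries. The 5 nearest were *Ptgis*, prostacyclin synthase, at a distance of 0.964 (r = 0.988), *Mcpt8* at 1.04 (r = 0.998), *Slc16a3*, a lactate transporter, at 1.44 (r = 0.990), *Ripk3* at 1.74 (r = 0.995) and *Gm1673* at 2.04 (r = 0.980). The profiles share the same 6 libraries and the same difference between the groups, which sets the correlations. *Ptgis* differed from *Gzmd* within WT, at 57.1, 39.1 and 34.5 FPKM, with replicate 1 highest. The other chosen genes were further away, *Mcpt1* at rank 72, *Nynrin* at rank 186 and *Gzmc* at rank 214.

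Genes for the trimming, transport and inhibition of granule proteases came next. Of 13 listed, 9 were measured and 7 tested, and of these 4 fell by limma's adjusted p (57.1%, against 8.96% of all tested genes), *Igf2r*, *Serpinb9b*, *Serpinb9* and *Serpinb6b*, and 0 rose. At an unadjusted p under 0.05 there were 6 lower and 0 higher. The median log2 difference was -0.57, against -0.00 for all tested genes. This list was chosen with earlier results of these data known, so its share is no independent evidence. *Igf2r*, on chromosome 17, encodes the cation-independent mannose 6-phosphate receptor that carries enzymes to lysosomes. It was at 12.1, 9.40 and 7.59 FPKM in WT and at 0.161, 0.218 and 0.181 FPKM in MSTN-KO, a log2 difference of -3.15 (standard error 0.18, limma adjusted p = 1.29e-07). *M6pr*, the smaller receptor for the same sugar, had 61.3 ± 5.06 and 56.4 ± 4.64 FPKM and overlapping groups (n = 3, log2 difference -0.12, limma adjusted p = 0.541).

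The fallen serpins are intracellular inhibitors of serine proteases, of which *Serpinb9* encodes the inhibitor of granzyme B. *Serpinb9b* was at 24.9, 28.0 and 27.0 FPKM in WT and 8.09, 10.6 and 11.0 FPKM in MSTN-KO (-1.35, standard error 0.15, limma adjusted p = 4.17e-05). *Serpinb9* was at 4.50, 3.64 and 3.85 FPKM in WT and 1.80, 1.92 and 1.48 FPKM in MSTN-KO (-0.87, standard error 0.16, limma adjusted p = 0.00262). The groups were apart for both, and these calls, like that of *Igf2r*, held in 16 of 16 alternatives. *Serpinb6b* fell by 0.57 (limma adjusted p = 0.0334) and kept its call in 9 of 16, losing it without WT replicate 1 or 2 or any 1 MSTN-KO library (adjusted p up to 0.171 over all alternatives). *Serpinb6a*, at 335 ± 41.9 and 254 ± 12.7 FPKM, did not pass (n = 3, limma adjusted p = 0.0528). All these serpin genes lie on chromosome 13, where 117 of the other 405 tested genes (28.9%) were lower, with a median of -0.34, and the part of this in their fall was not tested. *Ctsc*, the cathepsin that trims granzymes, and *Prf1*, perforin, were not analysed here, and *Srgn*, the proteoglycan core of granules, was at most 0.378 FPKM.

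Transcription factors known from cytotoxic lymphocytes, mast cells and basophils followed. Of 13 listed, 11 were measured and 7 tested, of which 2 fell by limma's adjusted p (28.6%, against 8.96% of all tested genes), *Gata2* and *Runx3*, and 0 rose. At an unadjusted p under 0.05 there were 3 lower, with *Stat5a* besides, and 0 higher. The median was -0.28, against -0.00 for all tested genes. This list too was chosen with earlier results known, so its share is no independent evidence. *Gata2*, a factor of mast cells and basophils, was at 9.47, 8.77 and 8.42 FPKM in WT and 4.78, 4.97 and 4.92 FPKM in MSTN-KO (-0.75, standard error 0.14, limma adjusted p = 0.00298). *Runx3*, a factor of cytotoxic T cells, was at 18.7, 15.8 and 17.2 FPKM in WT and 10.6, 11.4 and 10.9 FPKM in MSTN-KO (-0.61, standard error 0.13, limma adjusted p = 0.00721). The groups were apart for both genes, and both calls held in 16 of 16 alternatives. *Runx1*, which binds the same core sequence as *Runx3*, had overlapping groups at 40.3 ± 9.54 and 45.3 ± 14.5 FPKM (n = 3, log2 difference 0.13, limma adjusted p = 0.711). *Eomes*, *Prdm1*, *Gata1* and *Ikzf1* were under 0.334 FPKM in every library.

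Most partners of RIPK3 were expressed in both groups and did not pass the test. Of 17 listed necroptosis genes, 16 were measured and 14 tested, of which *Cflar* fell, *Tradd* rose and 12 did not pass. These are 7.14% in each direction, near the 8.96% and 8.78% of all tested genes, and the median was 0.02. *Mlkl*, the substrate of RIPK3, was at 9.91, 10.2 and 14.3 FPKM in WT and at 12.0, 12.1 and 12.1 FPKM in MSTN-KO, with overlapping groups (log2 difference 0.09, standard error 0.15, limma adjusted p = 0.731). *Ripk1*, the kinase upstream of RIPK3, was at 7.23, 6.61 and 7.54 FPKM in WT and 6.34, 6.42 and 4.92 FPKM in MSTN-KO (-0.24, standard error 0.15, limma adjusted p = 0.284).
*Cflar*, which encodes the caspase 8 inhibitor cFLIP, had 6.22 ± 0.338 and 4.04 ± 1.03 FPKM (n = 3, limma adjusted p = 0.0453), and *Tradd*, an adaptor of the TNF receptor, had 24.0 ± 1.90 and 33.0 ± 4.48 FPKM (n = 3, limma adjusted p = 0.0432). *Cflar* passed in 6 of 16 alternatives and *Tradd* in 7 of 16. *Cflar* lost its call without MSTN-KO replicate 1 or 3 or any 1 WT library, and *Tradd* without MSTN-KO replicate 1 or 3 or WT replicate 2 or 3. *Zbp1*, the nucleic acid sensor that also engages RIPK3, was at most 0.244 FPKM in any library.

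The 7 listed relatives of *Nynrin* with NYN or related ribonuclease domains were all measured, and 5 were tested. By limma, 0 fell and 0 rose, with 1 lower (*Khnyn*) and 0 higher at an unadjusted p under 0.05, and the median was 0.12. *N4bp1*, an antiviral ribonuclease gene, had 6.25 ± 0.472 and 6.94 ± 0.639 FPKM, with overlapping groups (n = 3, limma adjusted p = 0.565). *Zc3h12a*, which encodes regnase-1, had 4.16 ± 0.379 and 5.94 ± 1.82 FPKM (n = 3, limma adjusted p = 0.154). Every MSTN-KO library (8.03, 4.70 and 5.08 FPKM) was above every WT library (4.47, 4.27 and 3.74 FPKM) for *Zc3h12a*, though it did not pass the test.

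**Figure D4:**
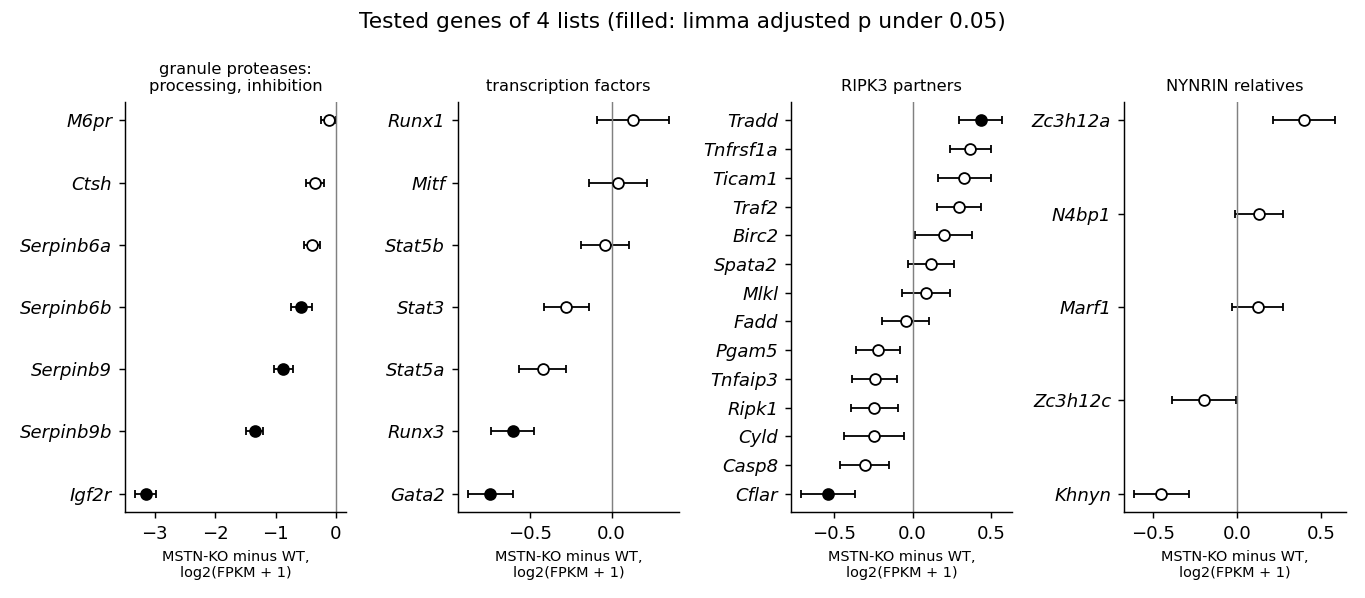
Difference between the groups (horizontal axes, MSTN-KO minus WT in log2(FPKM + 1), a scale of its own in each panel, bars for standard errors) of the tested genes of the lists for granule proteases, transcription factors, RIPK3 partners and NYNRIN relatives. Filled points have a limma adjusted p under 0.05, of which *Igf2r* at -3.15 lies furthest from 0.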

How the data were processed

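RNA of 3 WT and 3 MSTN-KO C2C12 libraries was sequenced by the authors, who deposited FPKM values per gene, 1 library per file, with Ensembl identifiers and no positions. The submitters' processing notes name Bowtie 0.12.2 and the build mm8 without their roles. FPKM depends on the rest of a library, so abundant genes that take more of it lower all others. Positions, lengths and symbols came from GENCODE M21 (GRCm38), which matched 14445 of 14548 identifiers, and promoter sequences from RefSeq (GRCm38.p6).

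Genes reaching 1 FPKM in any library were fitted as log2(FPKM + 1) with limma 3.58.1 (R 4.3.3, trend, Benjamini-Hochberg over all 10837 genes), after tests on simulated data. Fragments were estimated from the smallest steps of low genes with 1 transcript, 83 to 131 per library. Identities were computed with biopython 1.88 and the length and GC correction with mgcv 1.9.3. Other steps used Python 3.11.15, numpy 2.4.6, pandas 2.3.3 and matplotlib 3.10.9.

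The 6 genes and all lists were chosen with earlier results of these data known. Named are the 6 genes, every measured gene of the granzyme, chymase and tryptase lists, up to 4 called genes with the largest change of each other list and of the neighbours, the nearest measured neighbours of the stretch and the 5 profiles nearest to *Gzmd*. Further genes are named for their role in a list, with values seen. Groups came from the genotype in the labels. The replicate numbers did not pair libraries (r of deviations of -0.0153, -0.128 and -0.142 between same-numbered libraries). Alternatives were other pseudocounts, filters, scalings and windows, no trend, a replicate block, a length and GC correction and leaving out each library. The miRNA, rhabdo and control libraries were not analysed here.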

Additional observations from a re-analysis of the deposited data

How the results depend on the processing

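In each scaling and with each library left out, the groups did not overlap for any of the 6 genes. The log2 difference of *Gzmd* was -5.03, and it was -5.57 with a pseudocount of 0.1 and -5.36 with scaling to 1000000. That scaling put the median of all genes at -0.26. With it 2367 genes were lower and 350 higher, so that 87.1% of calls were lower in place of 50.5%. It gave 12 lower neighbours, 7 lower granule genes, 4 lower and 0 higher necroptosis genes, 1 lower NYN gene and 4 lower transcription factors. Leaving out single libraries gave 611 to 1233 lower genes (611 without WT replicate 2) and 419 to 1175 higher genes (419 and 600 without WT replicates 2 and 3, 488 and 588 without MSTN-KO replicates 1 and 3).

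The lower neighbours numbered 1, and 0 with the filter on the mean, 8 without the filter, 3 with quantile normalization, 5 with the length and GC correction, 3 with that correction and the replicate block, 2 with the replicate block alone, 2 in a window of 2 Mb and 0 to 3 with single libraries left out (0 without WT replicate 1, 3 and 2 without MSTN-KO replicates 2 and 3). The higher neighbours numbered 0, and 1 with the length and GC correction, 1 with that correction and the block, and 0 to 1 with libraries left out (1 without WT replicate 1). The lower necroptosis genes numbered 1, and 0 without the filter, with percentile 75 scaling, quantile normalization, the replicate block, or the length and GC correction with the block, and 0 to 1 with libraries left out. The higher ones numbered 1, and 0 without the filter, without the trend, with the replicate block or with the length and GC correction and the block, and 0 to 2 with libraries left out (2 without WT replicate 1 or MSTN-KO replicate 2). The length and GC correction gave 1 lower NYN gene, and leaving out libraries gave 0 to 1 (1 without MSTN-KO replicate 2). The causes of these changes were not tested.

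The replicate numbers are shared without pairing libraries, and the replicate block gave 1001 lower and 939 higher genes against 971 and 952. Depth limits *Gzmc*, *Mcpt1* and the other low proteases, whose values rest on few fragments, and all 3 MSTN-KO libraries come from 1 line, so effects of that line and of the genotype cannot be told apart.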

Other observations

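Besides *Ripk3*, 8 genes were at 1 FPKM or more in all 3 WT libraries and listed at 0 in all 3 MSTN-KO libraries. They were *Pnmal2* on chromosome 7 with a WT mean of 8.58 FPKM, *Ndn*, an imprinted gene on the same chromosome, with 3.59 FPKM, *Cthrc1* with 1.81 FPKM, *Alkal1* with 1.78 FPKM, *Crmp1* with 1.42 FPKM, *Smim20* with 1.37 FPKM, *Igfbp3* with 1.34 FPKM and *Akip1* with 1.33 FPKM. These genes were taken up after their values had been seen. *Ripk3* is the only one of the 9 on chromosome 14.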
